A study of Mus musculus with 14 samples.

Results

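The collagen genes of the mouse were followed through 3 kinds of brain: brains of mice that received acupuncture after an intracerebral haemorrhage (ICH), brains with the haemorrhage alone, and brains of sham-operated mice. A gene was counted as a collagen when its symbol was Col, a number, the letter a and a number, which held for 44 of the 31507 genes measured. All 44 are also described as collagens in the gene descriptions of the table. By type, 6 were basement membrane collagens (type IV), 11 were fibrillar collagens and 27 were of other types, among them the 6 chains of type VI. The acupuncture group had haemorrhage followed by needling at GV20, a point on the crown of the head, on 7 consecutive days. The ICH group had autologous blood, the animal's own, placed as a model of haemorrhage, and the sham group had the operation without it. No strain or age is given in the labels, and they do not say whether libraries of a group came from separate mice, so p-values measure only the spread between these samples, which may be technical. Each group gave input libraries of poly(A) RNA and libraries immunoprecipitated (IP) with an antibody against N6-methyladenosine (m6A), a methyl mark on RNA. There were 2 acupuncture, 2 ICH and 3 sham libraries of each kind.

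Collagens are triple helices of 3 chains built from Gly-X-Y repeats. Fibrillar collagens (types I, III, V, XI and relatives) form the ropes of connective tissue, while type IV forms the sheet of the basement membrane that surrounds every brain capillary. In the healthy brain, collagen is largely kept to vessels, meninges and choroid plexus, and fibrillar collagen is known to accumulate with fibroblast-like cells in scars after injury. Type VI collagen forms beaded filaments next to basement membranes, fibril-associated types decorate other fibrils, and the transmembrane types XIII, XVII, XXIII and XXV sit in cell membranes. In bulk tissue, more cells of a type and more RNA per cell cannot be told apart.

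Some properties of the libraries bear on what follows. Across tested genes, the log2 levels of the 2 ICH libraries correlated at 0.942, against 0.976 for the 2 acupuncture libraries and 0.983 to 0.988 among sham libraries. ICH replicate 1 was closer to acupuncture replicate 1 (0.975) than to its own partner, and also closer to each sham library (0.954 to 0.956). ICH replicate 2 correlated at 0.910 to 0.942 with the other libraries. Summed FPKM (fragments per kilobase of transcript, scaled to library size, a level per length) of 8 choroid plexus markers was 345 and 17.1 in acupuncture replicates 1 and 2, 338 and 355 in the ICH libraries and 455 to 489 in the sham libraries. Ttr, the transthyretin of choroid plexus, was at 335 and 1.13 FPKM in acupuncture replicates 1 and 2. Aqp1, also among the 8, went the other way, at 1.75 and 15.0 FPKM in these replicates and 1.03 to 1.63 FPKM in the ICH and sham libraries. Several other marker sums differed between groups. Summed FPKM of 10 fibroblast markers was 53.2 and 66.7 in acupuncture, 45.9 and 48.9 in ICH and 24.3 to 27.9 in sham libraries. Among these 10, Dpt, a marker of connective tissue fibroblasts, was at 0 to 0.109 FPKM everywhere. Pdgfra was at 3.84 and 3.86 FPKM in acupuncture, 5.22 and 5.79 in ICH and 4.02 to 4.98 in sham libraries. Of the 7 fibroblast markers that averaged at least 1 FPKM, 6 were higher in acupuncture than in sham. The 10 endothelial markers summed to 187 and 181 FPKM in acupuncture, 131 and 119 in ICH and 103 to 109 in sham libraries. The 10 mural cell markers summed to 71.8 and 71.9 FPKM in acupuncture, 59.9 and 72.5 in ICH and 58.4 to 62.5 in sham libraries, where ICH overlapped both other groups. The 8 markers of microglia and macrophages summed to 700 and 690 FPKM in acupuncture, 516 and 538 in ICH and 86.8 to 107 in sham libraries. The 6 astrocyte markers summed to 714 and 576 FPKM in acupuncture, 659 and 665 in ICH and 246 to 269 in sham libraries. Of these 6, 5 were higher in acupuncture than in sham, and Slc1a2 was lower. Slc1a2 was at 122 and 84.2 FPKM in acupuncture, 137 and 187 in ICH and 137 to 152 in sham libraries. The 8 markers of the oligodendrocyte lineage summed to 550 and 350 FPKM in acupuncture, 601 and 596 in ICH and 747 to 955 in sham libraries. The part of these cell types in the collagen results was not tested.

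Collagen RNA as a whole was highest in the acupuncture libraries. The FPKM of all 44 genes summed to 99.5 and 106 in acupuncture, 80.9 and 72.1 in ICH, and 67.6, 70.6 and 71.4 in sham libraries. Col6a1 alone was 26.3% and 31.7% of collagen FPKM in acupuncture, 21.6% and 21.5% in ICH and 20.4% to 24.9% in sham libraries. The basement membrane class summed to 28.5 and 27.0 FPKM in acupuncture, 19.96 and 19.99 in ICH and 12.1, 13.6 and 14.2 FPKM in sham libraries, and the groups did not overlap. Col4a1 and Col4a2 made up most of each of these sums. The fibrillar sum was lower and moved less, at 16.2 and 18.0 FPKM in acupuncture, 14.7 and 14.4 in ICH and 11.7, 12.6 and 13.1 in sham libraries. It joins members that went opposite ways. Col11a2 averaged 1.78 FPKM in acupuncture, 1.58 in ICH and 3.76 in sham libraries. Col1a1 averaged 2.04, 2.77 and 1.05 FPKM and Col3a1 1.25, 1.28 and 0.332 FPKM in the same order of groups. Of the 44 genes, 18 reached a mean of 1 FPKM over the 7 libraries and were tested, 26 did not, and 4 stayed below a mean of 0.1 FPKM. No collagen was listed at 0 in every library, and 1 (Col10a1, a network-forming collagen of growth plate cartilage) was listed at 0 in acupuncture replicate 1.

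**Figure D1:**
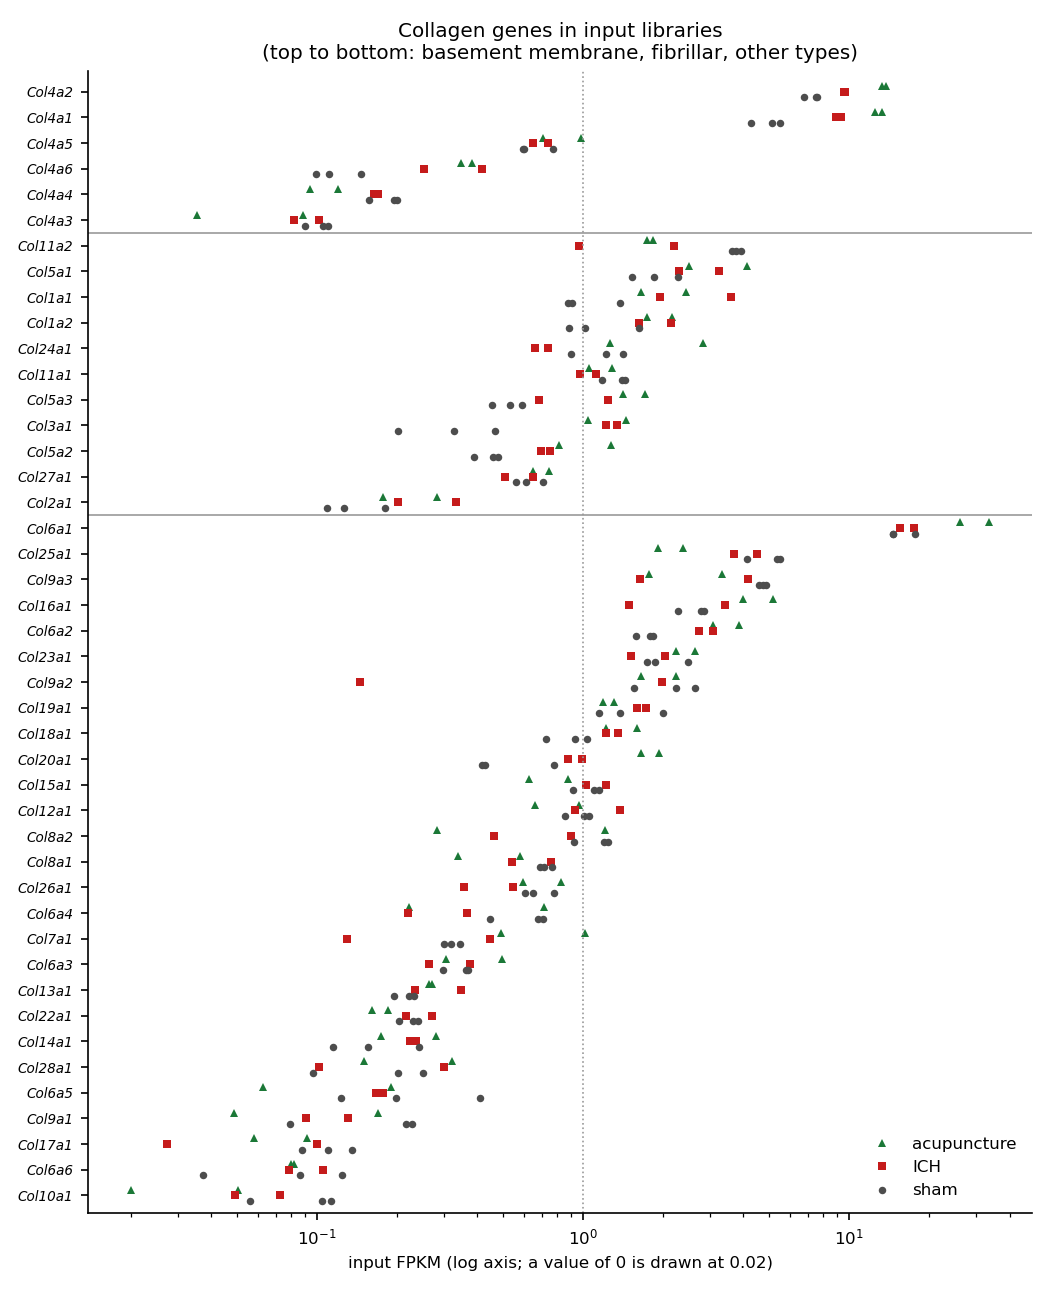
Input FPKM of all 44 collagen genes on a log axis, one point per library (green triangles acupuncture, red squares ICH, grey circles sham), with genes ordered by class and by mean level; the dotted line marks 1 FPKM, the mean needed for testing. Col4a1 and Col4a2 separate into 3 groups, Col6a1 is highest in the acupuncture libraries (26.1 and 33.5 FPKM), and Col9a2 is low in one ICH library (0.145 FPKM).

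The 13666 genes that averaged 1 FPKM or more were compared on log2(FPKM + 1) with limma, two-sided, and a gene was called where its p, adjusted by Benjamini and Hochberg's method, was under 0.05. A fold change on this scale understates the change of low genes. After haemorrhage (ICH against sham), 4.95% of all tested genes were called higher and 0.724% lower. Among the 18 tested collagens, 1 was called higher and 1 lower: Col4a1 rose and Col11a2 fell. With 18 collagens tested, 1 gene in each direction is too few to set against these shares. The median collagen change was 0.09 on the log2 scale, beside -0.01 for all tested genes. In acupuncture against sham, 8.47% of all tested genes were called higher and 3.22% lower, and of the 18 collagens 5 were called higher (Col4a1, Col4a2, Col6a1, Col6a2 and Col20a1) and 2 lower (Col25a1 and Col11a2). The median collagen change was 0.45, beside 0.04 for all tested genes. After centring each library on its median, the calls over all genes were 1001 higher and 748 lower in place of 1158 and 440, and the collagens called were these 7 again. Genes enter the test partly through the group in which they are high, so these counts and medians describe the 18 tested genes and not all 44. In acupuncture against ICH, 0.0366% of tested genes were called higher and 0% lower. No collagen was called in limma's test. At an unadjusted p under 0.05 there were 6 of the 18 collagens higher and 1 lower. Of all tested genes, 2754 (20.2%) had such a p, both directions together. Fold changes lay above 0 for 14 of the 18 collagens and for 56% of all tested genes. Both comparisons with sham share the sham libraries, and both with ICH share the ICH libraries.

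**Figure D2:**
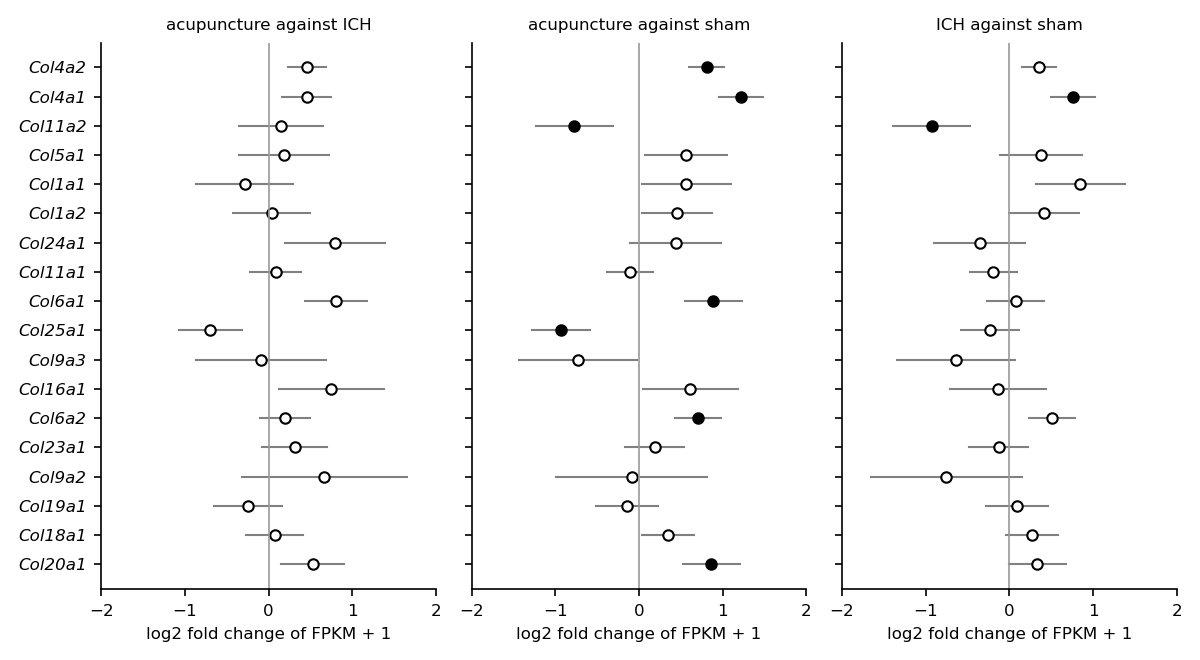
Log2 fold change of FPKM + 1 with its 95% interval (limma) for the 18 tested collagens in each comparison; filled points have an adjusted p under 0.05. Col4a1 is filled in both comparisons with sham (1.22 in acupuncture, 0.77 in ICH), Col11a2 is filled on the lower side in both, and no point is filled in acupuncture against ICH.

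The basement membrane chains Col4a1 and Col4a2, which assemble into the type IV network found in nearly all basement membranes, were the tested collagens with the smallest p in acupuncture against sham. Col4a1 had 13.2 and 12.4 FPKM in acupuncture libraries, 8.89 and 9.32 in ICH libraries, and 4.29, 5.13 and 5.48 in sham libraries. Every acupuncture library lay above every ICH library, and every ICH library above every sham library. Col4a1 rose by 1.22 ± 0.11 in acupuncture against sham (log2 fold change ± SE, limma adjusted p = 0.000828) and by 0.77 ± 0.11 in ICH against sham (adjusted p = 0.00959). The difference of acupuncture from ICH was 0.45 ± 0.12 with an adjusted p of 0.189. Col4a2 had 13.7 and 13.3 FPKM in acupuncture libraries, 9.64 and 9.53 in ICH libraries, and 6.78, 7.51 and 7.54 in sham libraries, again with no overlap between groups. Its log2 fold change was 0.81 ± 0.09 in acupuncture against sham (limma adjusted p = 0.00163), 0.36 ± 0.09 in ICH against sham (adjusted p = 0.0711) and 0.46 ± 0.10 in acupuncture against ICH (adjusted p = 0.172). In acupuncture against sham, both chains passed without each library in turn, and so did Col4a1 in ICH against sham. With libraries weighted by their spread, no collagen was called in ICH against sham.

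The balance of both chains also differed. Col4a1 over Col4a2 was 0.965 and 0.934 in acupuncture libraries, 0.922 and 0.978 in ICH libraries and 0.632, 0.683 and 0.727 in sham libraries, as a ratio of FPKM. All 4 libraries with haemorrhage lay above all 3 sham libraries, and acupuncture and ICH overlapped. The ratio is given as a description and was not tested.

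**Figure D3:**
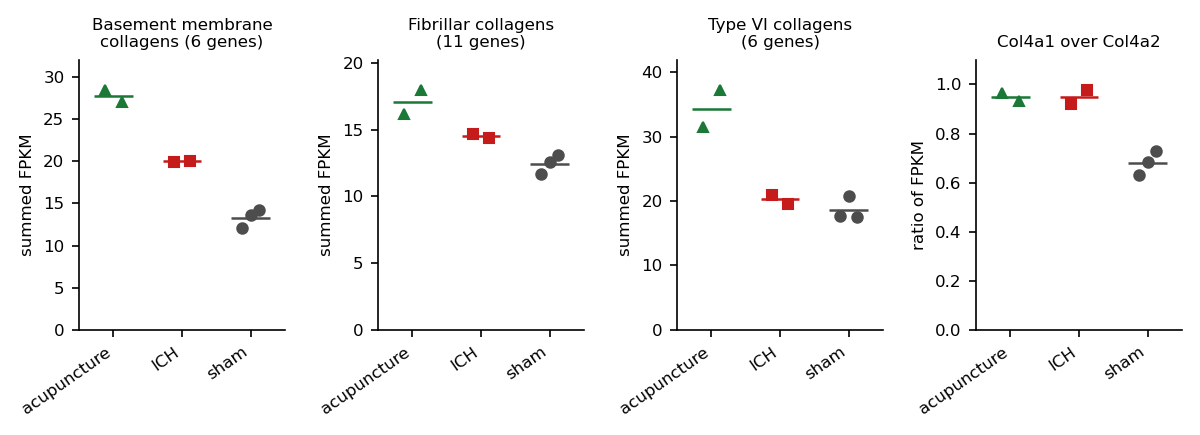
Summed input FPKM of the basement membrane, fibrillar and type VI collagens, and the ratio of Col4a1 to Col4a2, one point per library with a line at the group mean, acupuncture left, ICH in the middle and sham right. The basement membrane sum, mostly Col4a1 and Col4a2, falls into 3 separate levels (28.5 and 27.0, 19.96 and 19.99, and 12.1 to 14.2 FPKM). Type VI is highest in acupuncture, and the chain ratio separates both haemorrhage groups from sham.

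Col4a1 and Col4a2 lie head to head on chromosome 8, Col4a1 on the minus strand (chr8:11198423-11312826, GRCm38) and Col4a2 on the plus strand (chr8:11312805-11449287). Their annotated starts overlap by 22 bases. The stretch is printed because it joins the pair that moved together; it runs from 11312801 to 11312830 on the plus strand, from RefSeq (GRCm38.p6), with the 22 shared bases in capitals.
Col4a1 and Col4a2 shared start: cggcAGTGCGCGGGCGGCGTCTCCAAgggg
The overlap holds the 5′ ends of both transcripts, read in opposite directions. In stranded libraries, such as those the labels describe, the reads of each gene can be told apart by strand, though whether the authors counted by strand is not stated in those labels.

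The other basement membrane chains were low. Col4a5 and Col4a6, which lie head to head on chromosome X and pair in the membranes of smooth muscle and skin, had 0.981 and 0.705 FPKM (Col4a5) in acupuncture, 0.741 and 0.650 in ICH and 0.596 to 0.771 in sham libraries, a range in which all groups overlapped. Col4a6 had 0.349 and 0.382 FPKM in acupuncture, 0.417 and 0.253 in ICH and 0.0991 to 0.147 in sham libraries. Both haemorrhage groups lay above sham, and with genes of at least 0.1 FPKM admitted, Col4a6 differed by 0.29 in acupuncture against sham (limma adjusted p = 0.105) and by 0.25 in ICH against sham (adjusted p = 0.195). Col4a3 and Col4a4, chains of the kidney filter that lie head to head on chromosome 1, were at 0.0355 to 0.199 FPKM in all libraries.

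Among fibrillar collagens, the classical scar collagens had higher levels in both haemorrhage groups than in sham, and none was called higher among the tested ones. Col1a1, the major chain of type I collagen, had 1.65 and 2.44 FPKM in acupuncture, 1.95 and 3.59 in ICH, and 0.875, 0.910 and 1.38 in sham libraries. Its groups did not overlap with sham, yet its log2 fold change of 0.85 ± 0.22 in ICH against sham had a limma adjusted p of 0.0871, and 0.56 ± 0.22 in acupuncture against sham one of 0.173. Its partner chain Col1a2 had 1.73 and 2.16 FPKM in acupuncture, 1.62 and 2.14 in ICH and 0.885, 1.01 and 1.63 in sham libraries, with an overlap between ICH and sham. Col3a1, the type III chain that forms thin fibrils around vessels, had 1.05 and 1.45 FPKM in acupuncture, 1.21 and 1.34 in ICH, and 0.201, 0.327 and 0.467 in sham libraries. Its mean over all 7 libraries was 0.865 FPKM, so it was not among the 18 tested genes. With the threshold lowered to 0.1 FPKM, Col3a1 rose by 0.76 ± 0.13 in acupuncture against sham (limma adjusted p = 0.0148) and by 0.78 ± 0.13 in ICH against sham (adjusted p = 0.022). With a pseudocount of 0.1, chosen after the data had been seen, the Col3a1 log2 fold changes were 1.68 and 1.72. With no filter on low values, Col3a1 passed in acupuncture against sham and did not pass in ICH against sham.

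Type V chains, which start fibrils together with type I, moved in the same range. Col5a1 had 4.13 and 2.49 FPKM in acupuncture, 3.25 and 2.28 in ICH, and 1.85, 2.27 and 1.52 in sham libraries. Its differences from sham were 0.56 ± 0.21 in acupuncture (limma adjusted p = 0.145) and 0.38 ± 0.21 in ICH (adjusted p = 0.317). Col5a2 and Col5a3, both under a mean of 1 FPKM, reached 0.813 and 1.28 FPKM and 1.71 and 1.41 FPKM in acupuncture, 0.752 and 0.695 FPKM and 1.23 and 0.680 FPKM in ICH, and 0.390 to 0.478 FPKM and 0.453 to 0.591 FPKM in sham libraries. Under the lower filter both passed in acupuncture against sham (limma adjusted p = 0.0498 for Col5a2 and 0.0221 for Col5a3) and neither did in ICH against sham. With no filter on low values, neither passed in acupuncture against sham, so these calls depend on the filter. Col11a2, a chain of cartilage type XI, went the other way, with 1.73 and 1.84 FPKM in acupuncture, 2.19 and 0.967 in ICH and 3.61, 3.76 and 3.91 in sham libraries. It fell by 0.77 on the log2 scale in acupuncture (SE 0.19, limma adjusted p = 0.0472) and by 0.93 in ICH (SE 0.19, adjusted p = 0.0407). Col11a2 was the collagen whose call was lost most easily: without any single sham or acupuncture library it no longer passed in either comparison, with log2 fold changes from -0.95 to -0.90 in ICH and from -0.80 to -0.75 in acupuncture. Without ICH replicate 2 its difference in ICH against sham was -0.58, and without ICH replicate 1 it was -1.27, and both passed. Col24a1 had 1.26 and 2.83 FPKM in acupuncture, 0.660 and 0.740 in ICH and 0.904 to 1.41 in sham libraries, with ICH below sham. Col11a1 had 1.28 and 1.05 FPKM in acupuncture, 0.977 and 1.12 in ICH and 1.18 to 1.43 in sham libraries, ICH again below sham, and neither gene was called. Col27a1 overlapped between groups, and Col2a1, the cartilage collagen, stayed between 0.109 and 0.332 FPKM.

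Col6a1 and Col6a2, the 2 chains of type VI collagen that were tested, rose in acupuncture against sham. Col6a1, the most abundant collagen RNA in these brains, had 26.1 and 33.5 FPKM in acupuncture, 17.5 and 15.5 in ICH, and 14.7, 17.6 and 14.6 in sham libraries. Acupuncture libraries lay above all others, and ICH and sham overlapped. Col6a1 rose by 0.89 ± 0.14 in acupuncture against sham (limma adjusted p = 0.00897). Its log2 fold change was 0.08 ± 0.14 in ICH against sham (adjusted p = 0.759) and 0.81 ± 0.16 in acupuncture against ICH (adjusted p = 0.158), the smallest unadjusted p of any collagen there (0.00135). Col6a2, its neighbour on chromosome 10 and partner chain, had 3.84 and 3.07 FPKM in acupuncture, 2.71 and 3.07 in ICH, and 1.78, 1.82 and 1.58 in sham libraries. It rose by 0.70 ± 0.12 in acupuncture against sham (limma adjusted p = 0.00952) and was 0.51 ± 0.12 higher in ICH against sham with an adjusted p of 0.053. Col6a1 exceeded Col6a2 by 5.04 to 10.9 times in every library, as a ratio of FPKM. The ratio was 6.80 and 10.9 in acupuncture, 6.45 and 5.04 in ICH and 8.25 to 9.64 in sham libraries, lowest in the ICH pair. Col6a3, the long chain of the same molecule, stayed at 0.265 to 0.497 FPKM with overlapping groups and was not tested. Nor was Col6a4, at 0.713 and 0.221 FPKM in acupuncture, 0.220 and 0.365 in ICH and 0.448 to 0.707 in sham libraries. The acupuncture call of Col6a1 did not pass without acupuncture replicate 2, where the sum of choroid plexus markers was low (log2 fold change 0.71), nor that of Col6a2 without acupuncture replicate 1 (0.58).

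Fibril-associated and transmembrane collagens split. Col20a1, a fibril-associated collagen of little known function, had 1.65 and 1.93 FPKM in acupuncture, 0.991 and 0.878 in ICH and 0.426, 0.778 and 0.415 in sham libraries, with no overlap. It rose by 0.87 ± 0.14 in acupuncture against sham (limma adjusted p = 0.0104), and without acupuncture replicate 2 the difference of 0.79 did not pass. Col16a1 had 3.99 and 5.19 FPKM in acupuncture, 3.40 and 1.48 in ICH and 2.27 to 2.86 in sham libraries, with ICH on both sides of sham. Col9a3 and Col9a2, chains of type IX collagen of cartilage and eye, also differed widely within the ICH pair. Col9a3 had 3.33 and 1.77 FPKM in acupuncture, 4.16 and 1.64 in ICH and 4.56 to 4.85 in sham libraries. Col9a2 had 1.65 and 2.24 FPKM in acupuncture, 1.98 and 0.145 in ICH and 1.56 to 2.63 in sham libraries. ICH replicate 2 was the low library of each of these 3 genes.

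Col25a1, a neuronal transmembrane collagen whose shed part was first found in amyloid plaques, fell. It had 2.38 and 1.91 FPKM in acupuncture, 3.68 and 4.51 in ICH, and 5.35, 4.13 and 5.49 in sham libraries. Acupuncture libraries lay below all others, while ICH and sham overlapped. Col25a1 fell by 0.93 on the log2 scale in acupuncture against sham (SE 0.15, limma adjusted p = 0.00802). The difference was -0.23 ± 0.15 in ICH against sham (adjusted p = 0.374) and -0.70 ± 0.16 in acupuncture against ICH (adjusted p = 0.182). Without acupuncture replicate 2 the fall against sham was -0.82 and did not pass. Summed FPKM of 10 neuronal markers was 741 and 744 in acupuncture, 783 and 1036 in ICH and 855 to 959 in sham libraries. Of these 10, 4 were called lower in acupuncture against sham, beside 3.22% of all tested genes, and 3 had a fold change above 0. Penk was at 71.9 and 63.0 FPKM in acupuncture and 170 to 183 in sham libraries. Slc17a7 was at 190 and 185 FPKM in acupuncture and 132 to 184 in sham libraries. The part of these markers in the fall of Col25a1 was not tested. The multiplexins Col15a1 and Col18a1, proteoglycans of vessel basement membranes whose ends release antiangiogenic fragments, were near 1 FPKM. Col18a1 had 1.22 and 1.59 FPKM in acupuncture, 1.35 and 1.21 in ICH and 0.726 to 1.03 in sham libraries, and Col15a1 had 0.879 and 0.625, 1.02 and 1.22, and 0.913 to 1.14 FPKM in the same order of groups. The difference of Col18a1 from sham was 0.34 ± 0.13 in acupuncture (limma adjusted p = 0.156). The remaining types ranged between 0 and 2.64 FPKM, and none was called.

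Leaving out ICH replicate 1, the library closest to the acupuncture ones, changed the number of genes called in both comparisons with ICH more than any other omission. ICH replicate 2 then stands alone and is assumed to vary like the other groups. In acupuncture against ICH, 5105 genes were then called, and 5 collagens rose (Col11a2, Col16a1, Col4a2, Col6a1 and Col9a2) and Col25a1 fell. In ICH against sham 5212 genes were then called, with 4 collagens higher (Col1a1, Col4a1, Col4a2 and Col6a2) and 4 lower (Col11a2, Col16a1, Col9a2 and Col9a3). Without ICH replicate 2 the collagen calls in ICH against sham were Col4a1 and Col11a2, as with all libraries.

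Genes that make, process, bind or remove collagen were read from the same test. Of 20 folding and modifying enzymes, 6 rose in acupuncture against sham and 2 in ICH against sham, and none fell. Of all tested genes, 8.47% were called higher in acupuncture against sham and 4.95% in ICH against sham, and the counts of this and the following lists stand beside those shares. Serpinh1, the collagen chaperone Hsp47, had 16.0 and 13.4 FPKM in acupuncture, 11.3 and 7.51 in ICH and 6.84 to 8.38 in sham libraries, and rose by 0.89 in acupuncture against sham (limma adjusted p = 0.0207). Crtap, part of the prolyl 3-hydroxylation complex, and P4ha3, a prolyl 4-hydroxylase subunit, rose in both comparisons with sham, by 0.73 and 1.05 in acupuncture and by 0.78 and 1.32 in ICH. P4hb, Plod1 (a lysyl hydroxylase) and Fkbp10 rose in acupuncture against sham as well, by 0.71, 0.76 and 0.97.

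Of 15 processing and cross-linking genes, 8 were tested. Tgm2, a transglutaminase that cross-links matrix, rose in acupuncture (1.99) and in ICH (1.32) against sham. Bmp1, which removes the C-propeptide of fibrillar procollagens, and Loxl3, a lysyl oxidase relative, rose in acupuncture against sham by 0.89 and 0.47. Adamts2 and Adamts3, which remove the N-propeptide, fell there by 0.57 and 0.62 on the log2 scale, with Adamts2 at 0.490 and 0.520 FPKM in acupuncture, 1.37 and 1.19 in ICH and 1.10 to 1.36 in sham libraries. Among 12 receptors and uptake genes, 6 were tested. Against sham, Lair1, an inhibitory collagen receptor of immune cells, was called higher in ICH (0.74) and Itgb1, the β1 integrin chain, in acupuncture (0.68). Each also lay above sham in the other group without being called. Lair1 was at 1.86 and 1.92 FPKM in acupuncture and 0.919 to 1.07 in sham libraries. Itgb1 was at 21.0 and 20.1 FPKM in ICH and 13.2 to 16.4 in sham libraries. Gp6, the platelet collagen receptor, was at 0 or 0.00639 FPKM. Of 15 basement membrane partners 7 were tested, and Lamb2, a laminin chain of vessel basement membranes, was the 1 called (0.55 in acupuncture against sham, none in ICH against sham).

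Of 15 fibril-binding matrix genes 12 were tested, and 5 rose in each comparison with sham, where 8.47% of all tested genes were called higher in acupuncture and 4.95% in ICH. Fn1 (fibronectin), the small proteoglycans Dcn and Lum, and Thbs1 were common to both, by 1.67, 1.59, 0.81 and 0.76 in acupuncture and by 1.60, 1.67, 0.75 and 1.50 in ICH; the fifth was Thbs2 in acupuncture and Tnc in ICH. Dcn and Lum also stand in the fibroblast marker list. In the TGF-beta pathway, the ligand Tgfb1, the receptor Tgfbr2 and the target Tgfbi rose in both comparisons with sham, by 1.45, 0.97 and 3.599 in acupuncture and by 1.54, 1.13 and 2.52 in ICH, and the receptor Tgfbr1 rose in ICH (0.64). Tgfbi, a secreted protein that binds collagens, had 27.5 and 23.0 FPKM in acupuncture, 10.3 and 12.6 in ICH and 1.001 to 1.38 in sham libraries. Of 10 degradation genes 7 were tested, and Timp1, an inhibitor of matrix metalloproteinases, and Mmp14, a membrane collagenase, rose in both (5.46 and 1.58 in acupuncture, 4.49 and 0.93 in ICH against sham), while Mmp9 rose in acupuncture (1.14). In acupuncture against ICH no gene of these 7 lists was called in limma's test. Beside this, 0.0366% of all tested genes were called higher and 0% lower. With only 5 genes called in all, the absence of calls cannot show whether the lists stand out there. The list genes with the smallest unadjusted p there were Tgfbi (1.08, adjusted p = 0.0827), Tgfbr1 (-0.58, adjusted p = 0.17) and Tgm2 (0.67, adjusted p = 0.17).

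Sequence just before the annotated start was read for the collagens from RefSeq (GRCm38.p6), where 35 of the 44 symbols had 38 entries, and 22 genes had the same start as in the deposited table within 1 base. The 250 bases before the start are shown for 3 collagens whose starts match. Each passed against sham in acupuncture at a filter of 1 or of 0.1 FPKM. They are Col3a1 (chr1:45311288-45311537, plus strand), Col5a3 (chr9:20815068-20815317, minus strand) and Col20a1 (chr2:180986285-180986534, plus strand). Capitals mark every match, on either strand, of the TATA box letters TATAAA, of the CCAAT box letters CCAAT and of the GC box letters GGGCGG. The matches in these stretches do not overlap.
Col3a1: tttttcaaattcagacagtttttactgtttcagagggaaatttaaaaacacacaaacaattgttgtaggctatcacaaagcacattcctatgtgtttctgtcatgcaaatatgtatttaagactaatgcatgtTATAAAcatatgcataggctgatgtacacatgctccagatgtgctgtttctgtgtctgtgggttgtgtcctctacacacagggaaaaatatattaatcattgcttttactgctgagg
Col5a3: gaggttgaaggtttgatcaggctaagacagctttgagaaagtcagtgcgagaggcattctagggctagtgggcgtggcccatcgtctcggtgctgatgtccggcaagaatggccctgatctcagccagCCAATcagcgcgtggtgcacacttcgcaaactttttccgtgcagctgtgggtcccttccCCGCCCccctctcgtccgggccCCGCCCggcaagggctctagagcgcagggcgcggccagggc
Col20a1: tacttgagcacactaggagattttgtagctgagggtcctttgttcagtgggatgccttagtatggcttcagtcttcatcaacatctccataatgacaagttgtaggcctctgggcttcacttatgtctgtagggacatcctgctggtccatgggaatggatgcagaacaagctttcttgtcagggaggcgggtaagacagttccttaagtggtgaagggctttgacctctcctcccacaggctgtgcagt
The Col3a1 stretch holds 1 TATAAA beginning 117 bases before the start and is 35.2% G or C. The Col5a3 stretch holds CCAAT beginning 122 bases before the start and 2 copies of GGGCGG on the other strand, and is 62.8% G or C. The Col20a1 stretch holds none of the 3. Over all 38 collagen entries, TATAAA was found in 13.2%, CCAAT in 34.2% and GGGCGG in 57.9%, beside 12.4%, 33.8% and 32.7% of all 32851 entries of the table. A match says only that the letters are there.

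Methylation was read from the authors' peak lists, one per group, in which each peak carries the authors' log2 of IP over input and no value per library. Each list joins the libraries of a group, so no spread between libraries can be given. Which tool called the peaks is not stated in the labels. Collagen genes carried 139 peaks in the acupuncture list, 151 in the ICH list and 147 in the sham list, on 35, 36 and 35 of the 44 genes, out of 50105, 54754 and 48251 peaks in all. Of these genes, 33 had a peak in every list, and 7 in none: Col10a1, Col14a1, Col17a1, Col4a3, Col4a4, Col6a6 and Col9a1. Those 7 are among the low collagens. In each list, genes without a peak averaged at most 0.843 FPKM in acupuncture, 0.229 in ICH and 0.216 in sham libraries. Exons outside the UTRs held more of the collagen peaks than of all peaks: 53.2% in acupuncture, 54.3% in ICH and 53.1% in sham, beside 20.4%, 21.8% and 20.1% of all peaks. The 3′ UTRs held 43.2%, 41.1% and 42.2% of collagen peaks, beside 54.7%, 52.3% and 54.5% of all. A peak can span introns: 22.3% of collagen peaks in acupuncture, 29.1% in ICH and 23.8% in sham spanned over 5000 bases, beside 16.8%, 17.4% and 17.6% of all peaks.

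The median log2 IP over input of collagen peaks was 0.98 in acupuncture, 1.22 in ICH and 0.98 in sham, beside 1.12, 1.24 and 1.07 for all peaks. Among peaks with high values in the authors' lists, Col12a1 had 1 intronic peak at chr9:79714731-79715106, of 3.82 in acupuncture and 2.72 in ICH. In sham, a Col12a1 peak labelled 5′ UTR (chr9:79714706-79718753) covered that region at 2.63. Col19a1 had peaks labelled 3′ UTR of 3.32 in acupuncture, 3.25 in ICH and 3.66 in sham, and Col8a1 of 3.21, 3.06 and 2.84 in that order. Some of these were long. The Col19a1 peaks spanned 17071 bases in acupuncture and 40671 in ICH. The Col8a1 peak ran over chr16:57625982-57678395 in ICH. Col25a1 carried the most peaks in acupuncture (9) and in ICH (13). Among named collagens, Col4a1 had 5, 7 and 7 peaks in acupuncture, ICH and sham, Col4a2 3, 4 and 6, Col6a1 4, 3 and 2, and Col1a1 1, 4 and 2. At least 1 base on the same strand was shared with an ICH peak by 115 of 139 acupuncture collagen peaks (82.7%) and with a sham peak by 107 of 151 ICH ones (70.9%). Read from the other list, 106 of 151 ICH peaks (70.2%) met an acupuncture peak and 115 of 147 sham peaks (78.2%) met an ICH peak. Where 50% of both peaks had to be shared, 50 acupuncture peaks met an ICH peak (36.0%) and 59 ICH peaks met a sham peak (39.1%).

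The authors' deposited tables of differential peaks list regions with their own p under 0.05, and those with an adjusted p under 0.05 are given here as called. In ICH against sham, the authors' deposited table held 59 peaks on 27 collagen genes, of which 39 were called higher in ICH and 13 lower. These are 66.1% and 22.03% of the collagen peaks listed, beside 69.8% and 18.0% of all peaks listed, so the balance of directions is near that of all genes. By place within the transcript the counts were uneven. Of called exon peaks, 25 of 26 were higher in ICH (96.2%), beside 72.6% of all called exon peaks; of called 3′ UTR peaks, 12 of 24 were higher (50%), beside 81.8% of all. These shares were not tested, since peaks of 1 gene share their transcripts and no value per library is given. They also rest on the authors' place labels, which can differ between their lists for one region. On Col6a2, chr10:76596136-76596786 was labelled 3′ UTR in the authors' deposited table of acupuncture against ICH. Peaks within it at chr10:76596386-76596486 and chr10:76596686-76596786 were labelled exon in the acupuncture list.

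**Figure D4:**
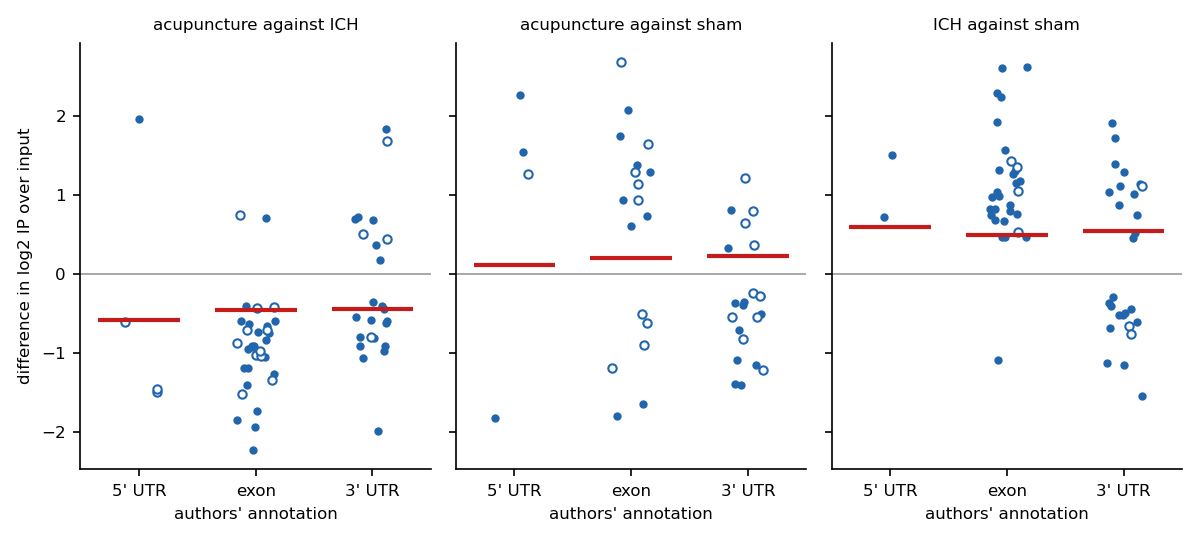
Difference in log2 IP over input (the authors' deposited tables, first-named group minus second) for collagen peaks by annotation, with filled points at an authors' adjusted p under 0.05 and red lines at the median of all listed peaks. In ICH against sham, exon points lie above 0 except 1 and 3′ UTR points lie on both sides; in acupuncture against ICH all exon points but 2 lie below 0.

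In the authors' deposited table of ICH against sham, 5 genes had called exon peaks higher and called 3′ UTR peaks lower: Col4a1, Col4a2, Col6a1, Col11a1 and Col19a1. The Col19a1 peak labelled 3′ UTR spanned 17046 bases, and a peak can span introns. On Col4a1, the exon peak at chr8:11241173-11245915 had a log2 IP over input of 1.21 in ICH and 0.17 in sham (authors' deposited table, adjusted p = 3.25e-06), while the 3′ UTR peak at chr8:11198422-11198747 had 0.70 in ICH and 1.10 in sham (adjusted p = 0.0318). On Col4a2, the exon peak at chr8:11439004-11441153 had 0.93 in ICH and 0.17 in sham, and the 3′ UTR peak at chr8:11449093-11449287 had 0.90 in ICH and 1.39 in sham, both called in the authors' deposited table. On Col6a1, the exon peak at chr10:76715170-76718997 had 1.74 in ICH and 0.91 in sham, and the long 3′ UTR peak at chr10:76709241-76711091 had 1.18 in ICH and 1.61 in sham (authors' deposited table, adjusted p = 8.86e-13 and 4.35e-11). On these chains the authors' IP enrichment was higher in ICH in exon peaks and lower in ICH at the 3′ UTR. The RNA of Col4a1 rose in ICH, that of Col4a2 and Col6a1 did not pass.

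Chains of types I and VI also had lower 3′ UTR peaks in ICH in the authors' deposited table. Col1a1 had a 3′ UTR peak at 0.05 in ICH and 1.21 in sham, Col1a2 one at 1.17 in ICH and 2.72 in sham, and Col6a2 one at 0.56 in ICH and 1.69 in sham, all called. The region of Col1a1 is one stretch of that UTR: in the authors' peak lists, its peaks further on in the 3′ UTR stood at 3.06 and 2.20 in ICH and at 1.78 in sham. Further called 3′ UTR peaks that were lower lay on Col25a1, whose other called 3′ UTR peak was higher, and on Col27a1, the single gene with a called exon peak lower in ICH (0.28 in ICH and 1.37 in sham). Called 3′ UTR peaks were higher in ICH on Col8a1, Col8a2, Col9a2, Col9a3, Col11a2, Col20a1, Col23a1 and Col24a1; Col9a2, with 2.04 in ICH and 0.74 in sham, was the one with the smallest p of the 8. Exon peaks were called higher also on Col3a1 (1.40 in ICH and -0.53 in sham), Col5a1, Col5a2, Col8a2, Col9a3, Col11a2, Col15a1, Col16a1, Col18a1 and Col24a1, and 5′ UTR peaks on Col1a2 and Col25a1.

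In acupuncture against ICH, the authors' deposited table held 61 peaks on 28 collagen genes, 8 of them called higher in acupuncture and 35 lower. That is 13.1% and 57.4% of those listed, beside 11.5% and 62.2% of all peaks listed. Of called exon peaks, 21 of 22 were lower in acupuncture, which leaves 4.55% higher beside 25.0% of all called exon peaks. Of called 3′ UTR peaks, 6 of 20 were higher (30%), beside 12.1% of all. On Col6a1 the exon peak at chr10:76715145-76718537 had 0.77 in acupuncture and 1.72 in ICH (authors' deposited table, adjusted p = 5.27e-19, the smallest of any collagen peak), while its 3′ UTR peaks were higher in acupuncture (1.48 against 1.11 in ICH for chr10:76708791-76709016, adjusted p = 0.00134). On Col3a1, an exon peak at chr1:45340995-45343491 had -0.42 in acupuncture and 1.80 in ICH, and the 3′ UTR peak had 1.17 in acupuncture and 0.49 in ICH, both called in the authors' deposited table. Col4a1 had 3 called exon peaks, all lower in acupuncture by 0.59 to 0.65 on the log2 scale, and Col4a2 had 4, lower by 0.59 to 0.91, in the authors' deposited table.

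Called exon peaks were lower in acupuncture against ICH also on Col5a1, Col5a2, Col5a3, Col6a4, Col11a1, Col16a1, Col20a1 and Col24a1, and the 1 higher was on Col9a3 (1.66 in acupuncture and 0.95 in ICH), in the authors' deposited table. Called 3′ UTR peaks were lower on Col4a1, Col4a5, Col6a4, Col8a2, Col9a2, Col12a1, Col16a1, Col23a1, Col24a1, Col26a1 and Col27a1, and went both ways on Col6a2, Col8a1 and Col25a1. The label of the Col4a1 peak, at chr8:11216774-11218682, is uncertain. It lies inside the gene, whose 3′ end is at 11198423, and the acupuncture list labelled an overlapping peak (chr8:11216774-11218029) exon. The Col4a5 3′ UTR peak was at 0.41 in acupuncture and 2.40 in ICH. The Col11a2 5′ UTR peak was at 1.73 in acupuncture and -0.24 in ICH, the 1 called there. This table shares the ICH libraries with the one above, and a high or low ICH value enters both with opposite sign.

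In acupuncture against sham, the authors' deposited table held 44 collagen peaks on 25 genes, with 11 called higher and 13 lower. These are 25.0% and 29.5% of those listed, beside 37.6% and 26.1% of all peaks listed. By place, 7 of 9 called exon peaks were higher (77.8%, beside 52.4% of all), and 2 of 12 called 3′ UTR peaks (16.7%, beside 62.2% of all). Called 3′ UTR peaks were lower on Col1a2, Col4a2, Col6a1, Col6a4, Col12a1, Col15a1, Col16a1, Col19a1 and Col27a1, and higher on Col9a2 and Col9a3. Col1a2 had 1.12 in acupuncture and 2.52 in sham at chr6:4541243-4541543, and Col4a2 had 0.99 in acupuncture and 1.35 in sham at chr8:11449068-11449287 (authors' deposited table, adjusted p = 0.00744 and 0.0226). Col6a1 had 1.29 in acupuncture and 1.57 in sham over its 3′ UTR in the authors' deposited table. Exon peaks were called higher on Col5a2, Col9a3, Col11a2, Col18a1 and Col20a1 and lower on Col5a1 and Col11a1, and 5′ UTR peaks higher on Col16a1 and lower on Col24a1. On Col9a3, a type IX chain, 3 exon peaks were called higher, by 0.94 to 1.75 on the log2 scale.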

How the data were processed

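Brain RNA was measured as input and as m6A immunoprecipitate, 7 libraries of each, grouped by the titles and treatment labels. The authors deposited input FPKM per gene and library, named so per the file headers. The authors' peak lists give log2 IP over input per group, the deposited adjusted p-value, and the differential tables give both groups' log2 values, their difference and the authors' p-values. The tools listed by the submitters' processing notes are fastp, HISAT2, StringTie, HOMER and edgeR, with no roles, beside a human build (GRCh38, hg38), while all 44 collagen genes lie within 1000 bp of their RefSeq place on GRCm38. The headings control and EA were read as sham and acupuncture, and 2 columns that match no sample were not used. FPKM gives no read counts, so depth and the precision it gives are unknown.

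Genes averaging 1 FPKM or more were tested on log2(FPKM + 1), pseudocount 1, in limma 3.58.1 (R 4.3.3), one mean per group over all 7 input libraries, moderated variance with a trend, two-sided, Benjamini-Hochberg over 13666 genes; the fit was tested on simulated data. Tables and figures were made with Python 3.11.15, pandas 2.3.3 and matplotlib 3.10.9. Peaks were counted as shared from 1 base on the same strand. Alternatives changed the pseudocount, filter, scaling, variance model, libraries and peak thresholds. Genes named are Col1a1, Col3a1, Col4a1, every collagen called, the 3 most abundant of each class, collagens called in the differential tables, and up to 4 of each other list with the smallest p; Col5a2, Col5a3, Col4a6 and others named beyond this were chosen after their values were seen. Members and lists were chosen with earlier results of these data known. Protein sequence and peak sequence were not used here. Part of the TGF-beta list is not reported here.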

Additional observations from a re-analysis of the deposited data

How the results depend on the processing

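In ICH against sham, all genes called numbered 776 as reported, 351 with the replicate number as a block and 298 with array weights. Collagens called higher there were 2 at a pseudocount of 0.1 or 0.5, at a mean of at least 0.1 FPKM, and at that mean with a pseudocount of 0.1 (chosen after seeing the data), but 0 with the replicate block or array weights. Collagens called lower were 0 at a pseudocount of 0.1 under either filter, with no filter, with the 2 groups alone, with the block and with array weights. In acupuncture against ICH, all genes called were 2 with the 2 groups alone, 3 with the block, 1 with array weights and 8 at the low filter with a pseudocount of 0.1. In acupuncture against sham they were 3207 with the 2 groups alone, 750 with the block and 3122 with array weights. Collagens called higher there were 8 at either low filter and 2 with the block (Col4a1 and Col4a2), and those called lower 1 at a pseudocount of 0.1 or 0.5, with no filter and at either low filter, and 0 with the block. Same-numbered libraries correlated at -0.015 to 0.094 in their deviations from the group means. With 2 libraries in a group these deviations mirror each other, so the values cannot show whether the numbers pair the libraries. Leaving out 1 library gave 387 to 5212 genes in ICH against sham (collagens 1 to 4 higher, 0 to 4 lower), 2 to 5105 in acupuncture against ICH (0 to 5 and 0 to 1), and 805 to 3215 in acupuncture against sham (3 to 6 and 0 to 3). Peaks with a log2 of at least 1 were 65 in acupuncture, 99 in ICH and 68 in sham. Sharing 50 percent of both peaks left 59 for ICH with sham, 50 for acupuncture with ICH and 49 for acupuncture with sham. At the authors' adjusted p, 11 collagen peaks were higher and 13 lower in acupuncture against sham, of 21 and 23 listed. No called fold change of a collagen changed sign. Some uncalled ones did, among them Col6a1 in ICH against sham (-0.01 without ICH replicate 1), Col16a1 there (0.28 without ICH replicate 2) and Col9a3 in acupuncture against ICH (0.39 without ICH replicate 1). FPKM carries no depth, so low collagens cannot be given a counting error. The searches planned in protein and peak sequence were not run, and the causes were not tested.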
